A study of Mus musculus with 8 samples.

Results

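The Nr4a genes, Nr4a1, Nr4a2 and Nr4a3, were followed through serum stimulation of starved NIH3T3 cells with and without cordycepin. Every non-control probe named for one of these genes was taken, whatever its signal, which gave 4 of the 55681 probes and 3 of the 35715 gene names on the array. NIH3T3 is an immortalised line of mouse embryo fibroblasts, and cordycepin is 3′-deoxyadenosine, an adenosine analogue. All cells were grown in 10% newborn bovine serum on 15 cm plates and then kept in 0.5% serum for 24 h. In the cordycepin plus serum group (3 arrays) they received 20 µM cordycepin in DMSO, and 60 min later 0.1 volume of serum, so that the drug was present for 90 min and serum for 30 min. The serum group (3 arrays) received 0.1% DMSO as vehicle in place of the drug, followed by serum in the same way. The no serum group (2 arrays) was starved and given no serum, and the labels class it as a control. The drug was always followed by serum in the arrays analysed here, so each effect of the drug was measured in the presence of serum. The labels describe independent triplicates without saying what was repeated, and the no serum group had 2 arrays here, so p-values measure the spread between these arrays.

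Nr4a receptors form a subfamily of the nuclear receptors, transcription factors that in most other subfamilies are switched by a ligand. They are called orphan receptors because no classical hormone is known for them, and their activity is set largely by how much of the protein is made. Nr4a1 (also called Nur77), Nr4a2 (Nurr1) and Nr4a3 (Nor1) have nearly the same DNA-binding domain, bind the NBRE element as monomers, and are encoded by immediate early genes that growth factors and cyclic AMP can induce without new protein synthesis. Nr4a1 is best known from growth factor responses, apoptosis and T cell signalling, Nr4a2 from the development of dopamine neurons, and Nr4a3 from muscle and blood cells.

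The probes are oligonucleotides of 60 bases, and the 2 that lie in coding sequence are shown here to make clear which part of each mRNA was measured. They are written 5′ to 3′ as the files give them.
Nr4a2 probe at base 2050: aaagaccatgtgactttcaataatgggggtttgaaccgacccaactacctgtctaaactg
Nr4a3 probe at base 2003: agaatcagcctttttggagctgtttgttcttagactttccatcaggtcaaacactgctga
Both encode part of the ligand-binding domain. In the files, whose probe positions refer to mouse build mm9, this Nr4a2 probe lies at chr2:56960699-56960758 on the minus strand. The second Nr4a2 probe starts at base 3112 of the same mRNA, at chr2:56959637-56959696, further towards the 3′ end. The Nr4a1 probe starts at base 2321 of its mRNA, at chr15:101105071-101105130 on the plus strand. The Nr4a3 probe has no genome position in the files and was printed as 10 spots on each array, while each of the other probes had 1 spot.

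Because serum response is set in part by sequences just before a gene, the 250 bases before the start of each Nr4a gene were read from the RefSeq promoter table of build GRCm38.p6. All 3 genes were matched, with 1 promoter each. The sequences are given on the strand of the gene, and capitals mark the core of the cyclic AMP response element, TGACG or its reverse complement CGTCA.
Nr4a1, chr15:101266596-101266845, plus strand: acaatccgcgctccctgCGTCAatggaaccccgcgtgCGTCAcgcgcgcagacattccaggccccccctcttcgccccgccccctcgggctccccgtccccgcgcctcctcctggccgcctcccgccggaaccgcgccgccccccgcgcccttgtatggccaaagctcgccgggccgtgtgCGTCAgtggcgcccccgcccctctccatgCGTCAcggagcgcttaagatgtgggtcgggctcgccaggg
Nr4a2, chr2:57124004-57124253, minus strand: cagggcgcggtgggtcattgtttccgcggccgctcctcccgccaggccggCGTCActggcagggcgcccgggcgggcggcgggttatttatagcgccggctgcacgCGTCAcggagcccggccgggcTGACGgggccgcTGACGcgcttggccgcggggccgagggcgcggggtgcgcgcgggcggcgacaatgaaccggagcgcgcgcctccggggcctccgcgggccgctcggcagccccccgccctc
Nr4a3, chr4:48045055-48045304, plus strand: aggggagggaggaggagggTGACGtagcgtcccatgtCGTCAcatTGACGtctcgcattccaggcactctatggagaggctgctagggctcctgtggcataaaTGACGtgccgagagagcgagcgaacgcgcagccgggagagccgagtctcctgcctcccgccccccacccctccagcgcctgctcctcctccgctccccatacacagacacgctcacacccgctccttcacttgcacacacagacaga
Each of the 3 sequences holds 4 such cores. In Nr4a1 they begin 233, 213, 69 and 40 bases before the start, in Nr4a2 200, 144, 123 and 111 bases before it, and in Nr4a3 231, 213, 205 and 147 bases before it. Of the 32851 promoters in the table, which belong to 27025 genes, 17.8% hold at least 1 core in the same window and 45 promoters (0.137%) hold at least 4.

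The other motifs were searched on both strands in the same window. The whole element TGACGTCA, which contains the core, was found in none of the 3 sequences and in 1.55% of all promoters. The CArG box bound by serum response factor was likewise found in none of them and in 1.47% of all promoters, and this says only that these letters are not in this window. The AP-1 motif TGANTCA (6.75% of promoters) and the NBRE motif AAAGGTCA (1.34%) were also absent. The SP1 motif GGGCGG occurred 3 times before Nr4a1, 4 times before Nr4a2 and once before Nr4a3, and 32.7% of promoters hold it. The EGR motif GCGNGGGCG was present before Nr4a1 and before Nr4a2 (4.7% of promoters), overlapping an SP1 match in each. Nr4a1 also held the ETS motif CCGGAA (12% of promoters). Nr4a2 held a TATA box, TATAAA (12.4%), inside a match to the MEF2 motif (2.92%). The base composition of the windows was 74.4% G and C for Nr4a1, 80.0% for Nr4a2 and 63.6% for Nr4a3.

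All 8 arrays were on 1 slide and were read in 1 scan. An array's 75th percentile of processed signal lay between 350.5 and 802.2, and no spot was saturated. The share of probes well above background was 51.1 to 57.1%. Across tested probes the arrays of a group correlated at r of 0.992 to 0.995, and arrays of different groups at 0.965 to 0.992. Of 10 fibroblast markers, 9 were well above background on all 8 arrays and Fap was on none. Of 6 epithelial markers, Krt14 was on all 8 arrays and Cdh1, Krt5 and Krt18 were on none. Of 4 endothelial markers, Pecam1, Kdr and Tek were on all 8 arrays and Cdh5 was on none. Of 4 muscle markers, none was on all arrays, and Myog and Ckm were on no array. Of 7 leukocyte and macrophage markers, 4 (Cd68, Csf1r, Itgam and Cd3e) were above background on all arrays. The summed linear level of that list, relative to the 75th percentile, was 28.3 to 35.7 with cordycepin, 16.3 to 18.1 with serum and 14.9 to 19.5 without serum, and its part in the results on Nr4a genes was not tested. These are bulk samples, in which fewer expressing cells and less RNA per cell cannot be told apart.

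What serum does to the Nr4a genes in starved cells was asked first. Values below are normalised log2 signals, the log2 processed signal less its 75th percentile on that array, so levels of different probes cannot be set against each other. Calls required an adjusted p under 0.05 together with a log2 difference of at least 1 in size, and 1.73% of the 30859 probes tested were called between serum and no serum, with 0.849% of all probes higher. Of the 3 Nr4a probes tested, 1 was called, the probe of Nr4a1. Without serum its values were 6.68 and 5.73. With serum they were 8.72, 8.98 and 8.62, above both starved arrays. Processed signals, before any scaling between arrays, were 82003 and 29177 without serum and 264294, 240742.5 and 233706 with serum. Nr4a1 rose 5.95-fold, a log2 difference of 2.57 ± 0.27 (standard error, limma, adjusted p = 0.00293). Leaving out each array in turn gave differences of 2.10 to 3.05, called each time.

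**Figure D1:**
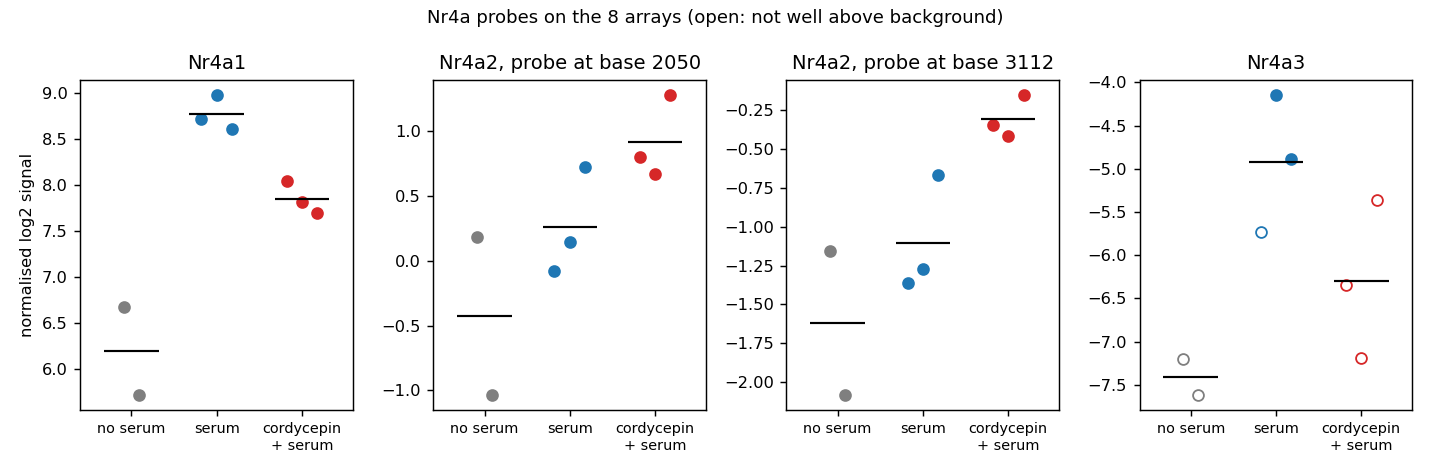
Normalised log2 signal of each Nr4a probe (vertical axis, a separate scale in each panel) on the 8 arrays by group (horizontal axis). Points are arrays, lines are group means, and open points are arrays on which the probe was not well above background. Nr4a1 is highest with serum (8.62 to 8.98) and lies between the other groups with cordycepin plus serum (7.70 to 8.05), while the Nr4a2 probes are highest with cordycepin plus serum.

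Cells given cordycepin before serum had an Nr4a1 signal between those of the other groups. Its values were 8.05, 7.82 and 7.70, below every serum array and above both starved arrays. The group means were 7.86 ± 0.18 (SD, n = 3) with cordycepin plus serum, 8.77 ± 0.19 (SD, n = 3) with serum and 6.20 ± 0.67 (SD, n = 2) without serum. Compared with serum alone, Nr4a1 was 1.89-fold lower, a log2 difference of -0.92 ± 0.24 (limma, 95% confidence interval -1.47 to -0.37, adjusted p = 0.0302). The adjusted p passed, while the size stayed under the limit of 1, so this difference was not called. Leaving out any 1 of the 6 arrays compared took the adjusted p above 0.05 as well (0.0515 to 0.0914, limma), with differences of -1.01 to -0.81. So did spike-in centring (-0.97, adjusted p = 0.491) and testing with no filter on dim probes (-0.92, adjusted p = 0.0892). With only these 2 groups fitted the adjusted p was 0.00522 (limma), at the same size. It was 0.00678 with an intensity trend (limma) and 0.00865 with normexp background correction (-0.96, limma), again at a size under 1. The difference was past the limit, and called, under quantile normalisation (-1.13), with arrays centred on the median spot (-1.22) and with slide row as a block (-1.02). Within the rows it was -0.79 in the first (2 arrays against 1) and -1.10 in the second (1 array against 2). Against cells without serum, Nr4a1 was called higher with cordycepin plus serum, by 3.15-fold (log2 difference 1.66 ± 0.27, limma, adjusted p = 0.00426). That call was lost when arrays were centred on their spike-in probes (1.26, adjusted p = 0.304).

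Of the 3 Nr4a probes tested, none was called between cordycepin plus serum and serum, where 10.5% of all probes were called, 7.63% higher and 2.87% lower. At an unadjusted p under 0.05 there were 2 of 3, against 32.0% of all probes. With no limit on size, 19.4% of all probes passed the adjusted p in that comparison and 7.36% were lower, among them Nr4a1. With no serum as the reference, 2 of the 3 Nr4a probes were called higher with cordycepin plus serum, where 9.47% of all probes were called, 6.48% higher and 2.99% lower. The arrays of the groups did not overlap for 2 of 3 Nr4a probes between cordycepin plus serum and serum (39.9% of all probes), 1 of 3 between serum and no serum (23.3%) and 3 of 3 between cordycepin plus serum and no serum (45.3%).

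Nr4a2 gave another pattern, on both of its probes. At base 2050 the values were 0.18 and -1.03 without serum, then -0.08, 0.14 and 0.72 with serum. With cordycepin plus serum they were 0.80, 0.67 and 1.28. The serum arrays overlapped the higher of the starved arrays, and the cordycepin arrays overlapped the highest serum array. No difference at this probe was called. Serum minus no serum was 0.69 ± 0.38 (limma, adjusted p = 0.705), with an interval from -0.19 to 1.57. This value was 0.08 without no serum replicate 2 and 1.30 without no serum replicate 1. Cordycepin plus serum minus serum was 0.65 ± 0.34 (adjusted p = 0.227, limma), with an interval from -0.13 to 1.44, and 0.35 with arrays centred on the median spot. Against no serum the difference with cordycepin plus serum was 1.34 ± 0.38 (adjusted p = 0.0508, limma), 2.53-fold, just outside the threshold. It passed with normexp background correction (1.22, adjusted p = 0.0164), among other settings.

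At base 3112 the Nr4a2 values were -1.16 and -2.08 without serum and -1.36, -1.27 and -0.67 with serum. With cordycepin plus serum they were -0.35, -0.42 and -0.15, above every array of both other groups. Serum minus no serum was 0.52 ± 0.30 (limma, adjusted p = 0.740), and 0.05 without no serum replicate 2 or 0.98 without no serum replicate 1. The difference from serum was 0.80 ± 0.27, or 1.74-fold (limma, 95% confidence interval 0.18 to 1.41, adjusted p = 0.0768), which did not pass the test and was 0.50 with arrays centred on the median spot. The adjusted p passed, at a size under 1, with normexp (0.67, adjusted p = 0.0351, limma) and with an intensity trend (adjusted p = 0.0360, limma). It did not pass with spike-in centring (0.74, adjusted p = 0.907, limma) or with no filter on dim probes (adjusted p = 0.191, limma). In 21 of 22 alternative settings the difference was still not called. Against no serum this probe was called higher with cordycepin plus serum, by 1.31 ± 0.30 or 2.48-fold (limma, adjusted p = 0.0206). The call was lost without cordycepin plus serum replicate 1 (1.33, adjusted p = 0.0572), without cordycepin plus serum replicate 3 (1.23, adjusted p = 0.0606) and without no serum replicate 2 (0.85, adjusted p = 0.131). It was also lost with spike-in centring (0.92, adjusted p = 0.717) and with no filter on dim probes (1.31, adjusted p = 0.0657).

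The starved arrays were the most spread on each of the 3 probes tested. Their SD was 0.67 for Nr4a1, 0.86 and 0.65 for the Nr4a2 probes at bases 2050 and 3112, whereas in the other groups it was at most 0.41. No serum replicate 1 was the higher array on all 3 probes. The rows of the slide, each of which held 1 starved array, disagreed about Nr4a2. Serum minus no serum was -0.26 and -0.21 at bases 2050 and 3112 in the first row and 1.47 and 1.11 in the second. For Nr4a1 it was 2.05 and 3.07, higher with serum in both rows.

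**Figure D2:**
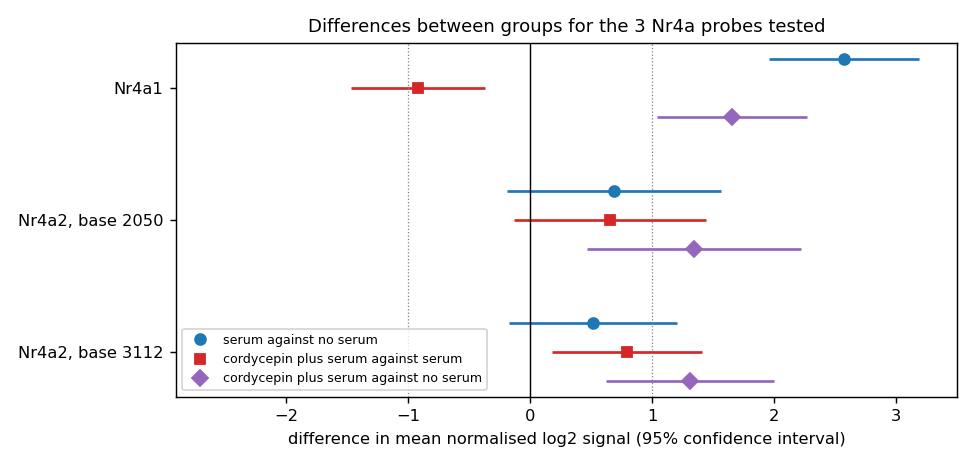
Difference in mean normalised log2 signal between groups (horizontal axis) for the 3 Nr4a probes tested (vertical axis), with bars for 95% confidence intervals from limma and dotted lines at -1 and 1. The serum interval of Nr4a1 runs from 1.96 to 3.19, its cordycepin interval lies below 0, and both Nr4a2 probes have positive differences in each comparison.

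Nr4a3 was close to background, and its probe was not tested because it was well above background on 2 of the 3 serum arrays and on no other array. A probe was counted as above background where at least 0.5 of its usable spots were. Of the 10 spots, 3, 10 and 9 were well above background on the serum arrays, 0, 0 and 4 on the arrays with cordycepin plus serum, and 0 and 0 without serum. The mean processed signal of the spots was 12.3, 39.2 and 23.6 with serum. It was 4.2, 4.2 and 11.9 with cordycepin plus serum, and 5.9 and 2.8 without serum. The single brightest spot on serum replicate 2 (147.6) and on serum replicate 3 (50.1) was marked as an outlier and left out of the normalised values.

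After scaling, Nr4a3 read -5.73, -4.14 and -4.88 with serum, -6.35, -7.19 and -5.37 with cordycepin plus serum, and -7.21 and -7.61 without serum. All 3 serum arrays were above both starved arrays, while cordycepin plus serum replicate 3 was above serum replicate 1. Since no array with cordycepin plus serum or without serum measured the probe above background, the data give only an upper limit for those groups. That limit was the lowest signal of any probe well above background on the same array, or the signal of Nr4a3 itself where it was larger. The mean of the serum arrays took all 3 at their measured values, including replicate 1, which was not well above background itself. On that basis Nr4a3 was at least 1.8-fold higher with serum than without, and at least 1.29-fold higher with serum than with cordycepin plus serum. Without serum replicate 1 these bounds were 2.38-fold and 1.70-fold. Without serum replicate 2, the first was 1.37-fold and no bound above 1 was left for the second. No fold is given between cordycepin plus serum and no serum, since the probe was not well above background in either group. When probes well above background on 2 arrays of a group were also tested, Nr4a3 was not called between serum and no serum (adjusted p = 0.0916, limma) or between cordycepin plus serum and serum (adjusted p = 0.109, limma).

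**Figure D3:**
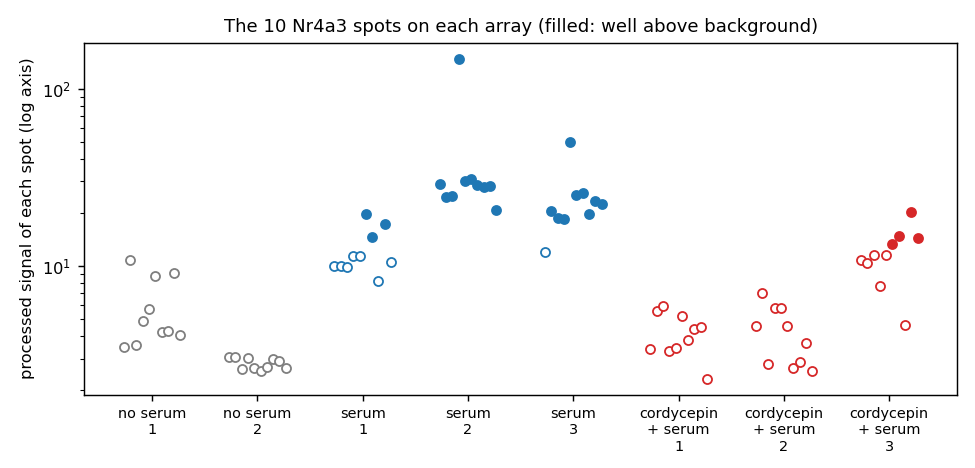
Processed signal of each of the 10 Nr4a3 spots (vertical axis, log scale) on each array (horizontal axis, by group and replicate). Filled points are spots well above background: 3, 10 and 9 on the serum arrays, 4 on cordycepin plus serum replicate 3, and none on the other 4 arrays.

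Whether the members responded differently was tested on the difference between their log2 signals within each array, with the brighter Nr4a2 probe and an exact two-sided permutation test over arrays. There were 6 comparisons, 3 pairs in each of 2 contrasts, and the smallest p that 3 against 3 or 3 against 2 arrays allow is 0.1. Nr4a1 minus Nr4a2 was lower by 1.57 with cordycepin plus serum than with serum, and the arrays of the groups did not overlap (6.42 to 7.25 against 7.89 to 8.84, exact p = 0.1, adjusted 0.15). The same quantity was 1.88 higher with serum than without, again with no overlap (6.50 to 6.76 without serum, exact p = 0.1, adjusted 0.15). The 4 comparisons with Nr4a3 are not read, since serum arrays alone measured that probe above background.

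The other nuclear receptors on the array gave no called change in either comparison with the serum group. Of 46 listed receptors, 31 were tested. Between serum and no serum none was called by limma, 1 had an unadjusted p under 0.05 (10.3% of all probes), and the median log2 difference was 0.01, against -0.02 over all probes. The leading 3 by size were Nr1h3, an oxysterol receptor (-0.59 ± 0.23, adjusted p = 0.372), Nr1i3, the constitutive androstane receptor (0.57 ± 0.27, adjusted p = 0.561), and Rorb (0.43 ± 0.33, adjusted p = 0.925), all from limma. The Nr4a1 difference of 2.57 was larger than all 31.

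Between cordycepin plus serum and serum, none of the 31 was called by limma and 8 had an unadjusted p under 0.05 (32.0% of all probes), with a median of -0.02 against 0.10 over all probes. With no limit on size, 4 were higher and 3 lower at an adjusted p under 0.05, which 19.4% of all probes passed. The leading 3 were Nr1h3 (1.00 ± 0.20, adjusted p = 0.00965), which was just short of the limit on size, the clock repressor Nr1d1 (-0.98 ± 0.16, adjusted p = 0.00359) and Nr1i3 (0.88 ± 0.24, adjusted p = 0.0354). Nr2f2, a developmental regulator also known as COUP-TFII, followed with -0.76 ± 0.12. Against no serum 2 of the 31 were called with cordycepin plus serum, where 9.47% of all probes were called. Nr2f2 fell by 1.07 ± 0.13 (adjusted p = 0.00113, limma), and Nr1i3 rose by 1.45 ± 0.27 (adjusted p = 0.00799, limma).

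The kinases, cofactors and transcription factors that act upstream of Nr4a genes were measured as mRNA, which says nothing of their activity. Of 25, 24 were tested. Serum response factor, Srf, was the only one called between serum and no serum, with a rise of 1.42 ± 0.13 (limma, adjusted p = 0.0017). Of all probes, 1.73% were called there. Between cordycepin plus serum and serum, Mef2d, a factor of the MEF2 family that binds the promoter of Nr4a1 in T cells, was the only one called. It fell by 1.37 ± 0.11 (limma, adjusted p = 9.48e-05). Of all probes, 10.5% were called in that comparison. Srf was lower by 0.64 ± 0.12 (adjusted p = 0.00624, limma), which was short of the limit on size. Against no serum, none was called with cordycepin plus serum, and 3 had an unadjusted p under 0.05, where 27.3% of all probes did. The medians of the list were 0.03, -0.12 and -0.05 in these 3 comparisons. Creb1, the factor that binds the cyclic AMP response element, differed by 0.09 ± 0.16 with serum and by -0.27 ± 0.14 between cordycepin plus serum and serum, and neither passed (adjusted p = 0.237 for the second, limma).

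None of 17 partners and coregulators was called in any comparison, with 4, 2 and 3 at an unadjusted p under 0.05 for cordycepin plus serum against serum, serum against no serum and cordycepin plus serum against no serum. The shares of all probes at that threshold were 32.0, 10.3 and 27.3%. Among them, Rxra, which pairs with Nr4a1 and Nr4a2 on DNA, was 0.51 ± 0.14 higher with cordycepin plus serum than with serum (adjusted p = 0.0331, limma). Ppargc1a, a coactivator, was lower by 0.65 ± 0.13 (adjusted p = 0.00786, limma) and Bcl2, whose protein binds Nr4a1 at mitochondria, by 0.69 ± 0.16 (adjusted p = 0.0174, limma). These 3 were under the limit on size.

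Genes described as targets of Nr4a receptors in other tissues were represented by 19 tested genes of 28. Angptl4, an inhibitor of lipoprotein lipase, differed by -0.29 ± 0.30 between serum and no serum and was not called. Between cordycepin plus serum and serum, Angptl4 fell by 1.23 ± 0.27 (adjusted p = 0.0132, limma). No member of the list was called higher in that comparison, where 7.63% of all probes were, and the median of the list was 0.19. Angptl4 was also the only member called between cordycepin plus serum and no serum, where it fell by 1.52 ± 0.30 (adjusted p = 0.0105, limma). Of all probes, 9.47% were called there. Pfkm, a glycolytic enzyme (0.19 ± 0.15), and Lpin1, an enzyme of lipid synthesis (0.10 ± 0.15), did not pass in the comparison of cordycepin plus serum with serum.

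Nr4a1 was last set beside 26 other immediate early genes, the class of genes that serum induces without new protein synthesis. Between serum and no serum 23 of the 26 were called higher, where 0.849% of all probes were. The median log2 difference was 2.51, and 13 had a larger difference than Nr4a1. These counts include Egr4, which was well above background on 3 serum arrays, 1 array with cordycepin plus serum and 0 starved arrays. Its differences from the serum group are therefore measured against signals near background. With cordycepin plus serum, 20 of the 26 were called lower and none higher than with serum, where 2.87% of all probes were called lower and 7.63% higher. The median was -1.68 against 0.10 over all probes. Of the 26, 20 had a more negative difference than the -0.92 of Nr4a1. Fosl1, a partner of Jun proteins in AP-1, had the most negative value on the list (-3.07 ± 0.20, limma, adjusted p = 4.13e-05), ahead of the antiproliferative gene Btg2 (-3.05 ± 0.19, adjusted p = 2.93e-05, limma). Between cordycepin plus serum and no serum, 10 of the 26 were called higher and 2 lower, where 6.48% of all probes were called higher and 2.99% lower. The median of the list was 0.58, while Nr4a1 stood at 1.66. The lists and Nr4a1 share the same arrays in each group.

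**Figure D4:**
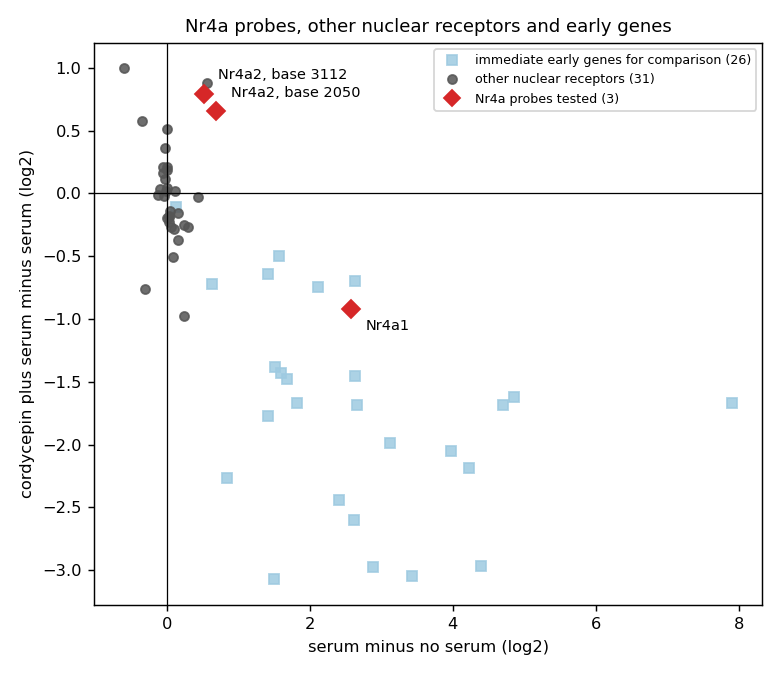
Log2 difference with serum (horizontal axis) and log2 difference of cordycepin plus serum from serum (vertical axis) for 3 Nr4a probes, 31 other nuclear receptors and 26 immediate early genes, each point a probe. Both axes use the serum arrays, so the slope of the cloud is not read as a result. Nr4a1 lies among the early genes at 2.57 and -0.92, the Nr4a2 probes lie at 0.69 and 0.65 (base 2050) and at 0.52 and 0.80 (base 3112), and the serum differences of the other receptors run from -0.59 to 0.57.

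The part of the serum rise that was left with cordycepin was computed on the linear scale as the difference of the cordycepin plus serum mean from the no serum mean, in percent of the difference of the serum mean from the no serum mean. It was 42.8% for Nr4a1, with 36.0 to 51.7% over the 3 cordycepin arrays, and 64.3% on the log2 scale. Leaving out each array in turn gave 38.4 to 47.1%. For the 23 early genes called higher with serum the same quantity ranged from -35.1 to 54.7% with a median of 15.5%, and 19 of them had a smaller share left than Nr4a1. The other 4 were Srf (43.1%), Ier3 (47.1%), Egr2 (54.6%) and Nfkbiz (54.7%). Egr4, among the 19, was well above background on 1 array with cordycepin plus serum and 0 starved arrays, so its share is uncertain. For Fosl1, Klf6, Ctgf and Dusp1 the mean with cordycepin plus serum was below that of starved cells. On the log2 scale the median of the 23 was 36.3%, and 18 had a smaller share left than the 64.3% of Nr4a1. The 5 with a larger share on that scale were Fosb (78.8%), Egr2 (73.3%), Nfkbiz (68.2%), Fos (66.6%) and Ier3 (64.5%), while Srf was at 54.9%. These shares were not tested.

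**Figure D5:**
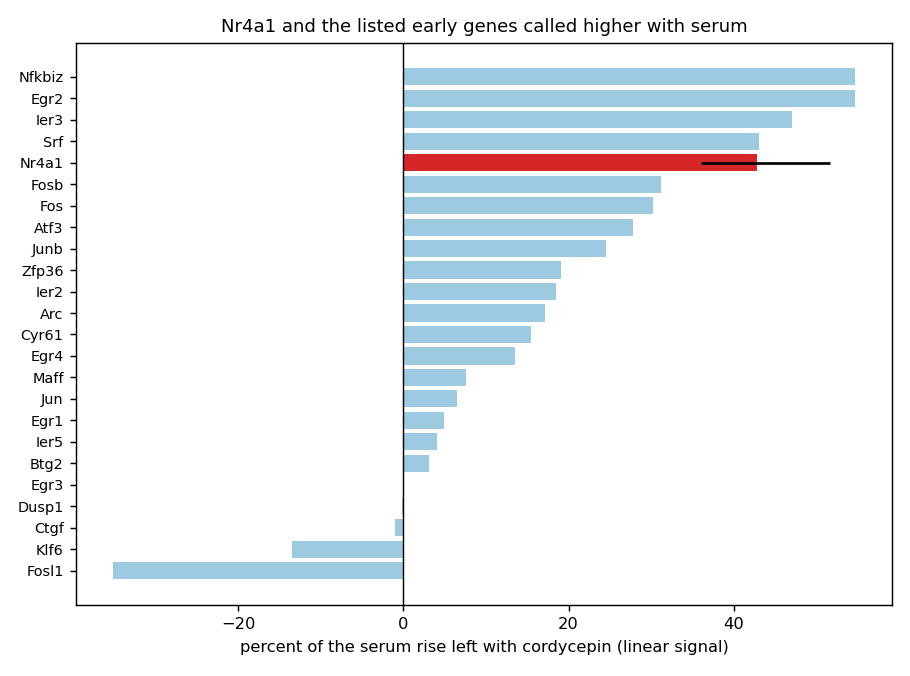
Percent of the serum rise left with cordycepin on the linear signal scale (horizontal axis) for Nr4a1 (red) and the 23 listed early genes called higher with serum (blue). Bars are computed from group means and start at 0, and the black line spans the 3 cordycepin arrays for Nr4a1 (36.0 to 51.7%). On this scale Nr4a1 comes just after Nfkbiz, Egr2, Ier3 and Srf.

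Genes with a pattern most like that of each receptor were ranked by Pearson's r of normalised log2 signal over the 8 arrays, among 1067 genes whose group means spanned at least 1 log2 unit. The ranking is a description, since the arrays fall into the 3 groups. The 5 genes most like Nr4a1 were Ier3, an early gene of survival signalling (r = 0.979), Srf (r = 0.977), Egr2, a zinc finger factor (r = 0.975), Arc, best known from synapses (r = 0.972), and Npas4, a transcription factor known from neurons (r = 0.971). Each of them was called higher with serum, Npas4 by 3.36, where 0.849% of all probes were. Since they were picked for likeness to Nr4a1 on the same arrays, that count follows largely from the choice. Of the 5, Arc (-2.18) and Npas4 (-1.12) were called lower with cordycepin plus serum than with serum, where 2.87% of all probes were. Among the 5 genes most like Nr4a2 were Tcf15 (r = 0.958), 1700001J03Rik (r = 0.947), the scavenger receptor Msr1 (r = 0.922) and Cybrd1, a ferric reductase (r = 0.872). None of these was called with serum, and Cybrd1 was called higher with cordycepin plus serum than with serum (2.68, adjusted p = 0.0274, limma). The Cybrd1 means were -3.27 with cordycepin plus serum, -5.96 with serum and -7.14 without serum. Its signals without the drug were thus low, and the size of its difference is uncertain. Group means were also low for Tcf15 (-5.82 to -4.78) and Msr1 (-5.72 to -4.35). Nr4a3 was not ranked, since its signal was mostly not above background.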

How the data were processed

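RNA of 8 cultures was labelled with Cy3 by oligo-dT primed amplification and hybridised to 1-colour arrays. The deposited files hold linear intensity values per spot, which the authors extracted with Feature Extraction 10.7.3.1. Its processed signal has a background subtracted, and it flags outlier spots and spots well above background. The study's methods name limma and no normalisation. From the processed signal, log2 values were taken and each array's 75th percentile over non-control spots was subtracted. Control and outlier spots were left out and spots of a probe averaged (432 probes). The 30859 probes that were well above background throughout at least 1 group entered a limma 3.58.1 model (R 4.3.3) of the 3 group means over 8 arrays, without covariates. Two-sided p-values were adjusted by Benjamini and Hochberg over all probes tested, and calls needed an adjusted p under 0.05 and a log2 difference of at least 1. For a listed gene the tested probe with the highest mean was used. Gene names are those of the array, and of 14642 RefSeq accessions of tested probes 14508 matched a current symbol. The members, the lists and the rule for named genes (every member, called list genes, the leading 3 of a list, the 5 most alike genes) were chosen with earlier results of these data known. The calculation was tested on simulated data. The number of arrays limits the precision, and scaling removes any change that most transcripts share. The alternatives covered background correction, scaling, filters, call rule, samples fitted, variance model, slide row, replicate block and leaving out each array. The arrays' replicate numbers were not treated as pairs. Probe positions refer to mm9, while promoters are RefSeq's for GRCm38.p6. Results on some listed genes are not reported here.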

Additional observations from a re-analysis of the deposited data

How the results depend on the processing

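The 3 tested Nr4a probes kept the direction of all their differences under every alternative fit, scaling included, apart from the first slide row taken alone, where Nr4a2 turned between serum and no serum. The call of Nr4a1 between serum and no serum held in all of them. Cordycepin plus serum against serum, Nr4a1 became a call with quantile normalisation (-1.13), centring on the median spot (-1.22), no minimum fold (-0.92) and the slide row as a block (-1.02), and ranged from -1.01 to -0.81 with arrays left out. With arrays left out, Nr4a2 at base 3112 ranged from 0.66 to 1.01 and was called without serum replicate 3 (1.01, adjusted p = 0.0386, limma). Cordycepin plus serum against no serum, Nr4a1 lost its call with spike-in centring (1.26). Nr4a2 at base 3112 lost it with spike-in centring (0.92) and with no filter on dim probes (1.31), and ranged from 0.85 to 1.77 with arrays left out. Nr4a2 at base 2050 became a call with normexp (1.22), with probes well above background on all 8 arrays (1.34), at unadjusted p (1.34), with an intensity trend (1.34) and with the percentile taken over averaged probes (1.33, an alternative chosen after seeing the data). With arrays left out it ranged from 0.74 to 1.95, called without serum replicate 3 (1.34, adjusted p = 0.0464, limma) and without no serum replicate 1 (1.95, adjusted p = 0.0153, limma).

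Replicate numbers did not pair the samples, as deviations of same-numbered cordycepin plus serum and serum arrays correlated at -0.001, -0.175 and 0.144. With the replicate block, Nr4a1 stood at 2.65 for serum against no serum and -0.92 for cordycepin plus serum against serum, and the block changed no call of an Nr4a probe. The differences between Nr4a3 and the other members are not read, and normexp moved all 4. Nr4a1 minus Nr4a3 went from 0.47 to -0.95 with cordycepin and from 0.08 to 1.99 with serum. Nr4a2 minus Nr4a3 went from 2.04 to 0.65 and from -1.80 to 0.0301.

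For cordycepin plus serum against serum, 2356 higher calls became 919 with normexp, 1117 with probes above background on all arrays and 3704 with no minimum fold, and 886 lower calls became 402 with normexp, 428 with spike-in centring, 1780 with median centring and 2271 with no minimum fold. For cordycepin plus serum against no serum, 1999 higher calls became 1063 with normexp, 829 with spike-in centring and 1022 with probes above background on all arrays, and 923 lower calls became 338, 611, 1490 and 1837 with normexp, spike-in centring, median centring and no minimum fold. For serum against no serum, 262 higher calls became 171 with normexp, 54 with spike-in centring and 133 with no filter, and 136 to 249 with an array left out (162 without no serum replicate 1, 136 without no serum replicate 2). The 271 lower calls became 59, 155, 88, 142, 611 and 149 with normexp, spike-in centring, no filter, probes above background on all arrays, unadjusted p and only the groups compared, and 127 to 285 with an array left out (127 without no serum replicate 1, 129 without no serum replicate 2). The share of calls that were higher was 72.7% for cordycepin plus serum against serum and 51.1% with median centring or 60.3% with quantile normalisation. With cordycepin plus serum against no serum it was 68.4%, and 53.4%, 58.4% and 57.6% with median centring, quantile normalisation and spike-in centring. For serum against no serum it was 49.2%, and 74.3% with normexp and 25.8% with spike-in centring. Spike-in centring moved the median of all probes there from -0.02 to -0.35. With cordycepin plus serum against no serum, spike-in and median centring moved that median from 0.08 to -0.31 and -0.12, and median centring took it from 0.10 to -0.20 against serum.

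With the mean of all tested probes of a gene, the called upstream regulators went from 1 to 2 for cordycepin plus serum against serum and from 0 to 1 between cordycepin plus serum and no serum, where called Nr4a genes went from 1 to 2 and called target genes from 1 to 2. Signals near background limit all statements on Nr4a3.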
